A study of Mus musculus with 12 samples.

Results

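The heat shock proteins and their cochaperones were examined in mouse eyes as a module of 38 named genes, chosen by family: 12 members of the HSP70 and HSP110 family, 4 of the HSP90 family, 3 small heat shock proteins, the 2 mitochondrial chaperonins of the HSP60 and HSP10 families, 10 J-domain proteins of the HSP40 family, 5 further cochaperones of HSP70 and HSP90, and 2 heat shock transcription factors. The members were chosen with earlier results of these data known. All 38 were found among the 32517 gene entries of the deposited table, and all 38 were among the 15134 genes that were tested. RNA sequencing was done on 12 libraries from male mice aged 12 weeks. The cKO mice carried Cre and a retina-specific deletion of Nr3c1, the gene of the glucocorticoid receptor, and the WT mice were Cre-negative. All mice lived under a cycle of 12 h light and 12 h dark for 2 weeks before constant darkness, received no drug, and had their eyes collected on day 2 of darkness at 6 circadian times (CT2, CT6, CT10, CT14, CT18 and CT22). Each library pooled equal amounts of RNA from 3 mice, so each genotype had 6 libraries, 1 per time, and variation among individual mice cannot be seen. The Cre driver is not named in the sources used here, and no Cre-positive mice with an intact receptor were among the samples, so Cre and the deletion cannot be told apart.

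Heat shock proteins are chaperones that bind unfolded or immature proteins and keep them from aggregating. J-domain proteins deliver clients to HSP70, whose ATPase they stimulate, nucleotide exchange factors such as the HSP110 proteins reset it, and HSP90 with its cochaperones takes over partly folded clients, among them the glucocorticoid receptor, which needs this machinery to bind hormone. In the endoplasmic reticulum (ER) the same work is done by BiP (Hspa5) and GRP94 (Hsp90b1), and in mitochondria by mortalin (Hspa9), TRAP1 and the HSP60 chaperonin. Many cytosolic members are induced by the heat shock factors through heat shock elements, while the ER members respond to the unfolded protein response. In the eye, small heat shock proteins are abundant in the lens, and photoreceptors make large amounts of membrane protein that is folded in the ER.

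Library totals ran from 10482736 to 10703737 counts. Levels are given in CPM, counts scaled to library sizes that were corrected by TMM in edgeR. Nr3c1 had 38.8, 49.3, 42.9, 49.3, 45.0 and 49.6 CPM in cKO at CT2 to CT22, and 71.8, 65.9, 55.4, 76.0, 65.3 and 60.6 CPM in WT. Every cKO library was below every WT library, with a log2 difference of -0.52 ± 0.06 (SE; adjusted p = 0.00180 by edgeR's quasi-likelihood test with Benjamini-Hochberg adjustment over all tested genes, which is the adjusted p throughout). The sources disagree on the tissue: the protocols name whole eyes, the series title the retina, while the sample characteristics give ciliary body as tissue and a line of nonpigmented ciliary epithelium. Markers of several eye tissues were present in every library, for example 8 rod markers that summed to between 40107 and 52071 CPM in cKO and between 40774 and 48001 CPM in WT, and 10 lens markers that summed to between 46721 and 62336 CPM in cKO and between 35939 and 54594 CPM in WT. The libraries are treated as whole eye, and in such bulk samples fewer cells of a type and less RNA per cell cannot be told apart.

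Members of the module that varied over the day were mostly higher in the subjective night (CT12 to CT24) in a fit common to cKO and WT. That fit takes 1 rhythm for both genotypes and does not show that their rhythms were alike. Only 1 cycle was sampled, so whether a pattern repeats every 24 h was not observed. A 24 h rhythm common to cKO and WT passed the test for 9 of 38 members (23.7%), against 3.46% of all tested genes. Of these 9, 8 had their fitted peak in the subjective night, between CT15.5 and CT20.8, a combination found in 2.02% of all tested genes. Over all tested genes, 523 passed the shared test, and 305 of those had a fitted night peak. The 8 were the cytosolic HSP70 genes Hspa8, Hspa1a and Hspa1b, their exchange factor Hsph1, the cytosolic HSP90 gene Hsp90aa1, the J-domain gene Dnajb2, and both major ER chaperones, Hspa5 and Hsp90b1. Their fitted range from trough to peak lay between 1.27-fold and 1.38-fold. The ninth, Hspb6, peaked in the subjective day. Because the members were chosen with earlier results of these data known, their shares describe the list and are no independent test.

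Night peaks were also common among members below the threshold. Including members that did not pass, 33 of 38 (86.8%) had a fitted peak in the subjective night, against 50.1% of all tested genes. The 29 members that did not pass had fitted ranges of 1.02-fold to 1.28-fold, and 25 of them had night peaks. In the 12 libraries themselves, 30 of 38 members (78.9%) stood higher at CT14 than at CT10 in both genotypes, against 27.6% of all tested genes, a comparison chosen after the values were seen. The exceptions were Hspa2, Hspa12a, Hspa13, Hspa14, Hspb6, Hspe1, Dnajb11 and Bag3. Markers of the tissues in these whole eyes also differed in their timing. Fitted night peaks were found in 0 of 10 lens markers and 0 of 8 rod markers, but in 6 of 7 cornea and conjunctiva markers, 6 of 7 stroma and sclera markers, 8 of 11 tested muscle markers and 5 of 5 tested red blood cell markers. Of all of these, 1 rod marker and 1 cornea marker passed the shared test. The stroma and sclera markers had a median fitted amplitude of 0.29 (log2) and summed to between 629 and 1231 CPM in cKO, highest at CT14, and to between 739 and 1490 CPM in WT, highest at CT18. No marker of these lists was at 0 in all libraries, and the part of tissue make-up in the members' timing was not tested. The members' median fitted amplitude (mean to peak, in log2 units) was 0.09, against 0.08 over all tested genes.

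A second test asked for any difference between times without assuming a wave shape. It called 5 members, Hspa5, Hspa8, Hsp90aa1, Hsp90b1 and Hsph1 (13.2%), against 1.93% of all tested genes. Among the tissue markers it called 4 of 10 lens markers (40%) and 5 of 11 tested muscle markers (45.5%). It also called 1 of 8 rod markers and 1 of 7 cornea and conjunctiva markers, but 0 stroma and sclera markers and 0 red blood cell markers. The module is well expressed, with a median level of 82.0 CPM against 25.6 CPM over all tested genes, and better expressed genes are called more often. Among genes with a mean level of at least 9.19 CPM, that of the lowest member, Hspa2, so that all 38 members stay in, 4.16% passed the shared 24 h test, 2.46% passed it with a night peak and 2.45% passed the any-time test, and 50.4% had a fitted night peak. These counts depended most on CT10: without the CT10 pair, 3 members passed the shared test (Hspa1a, Hspa8 and Hsph1) and 1 passed the any-time test (Hspa8). Without the CT6 or the CT18 pair, 5 members passed the shared test, and without the CT22 pair or the WT library of CT22, 3 passed the any-time test.

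**Figure D1:**
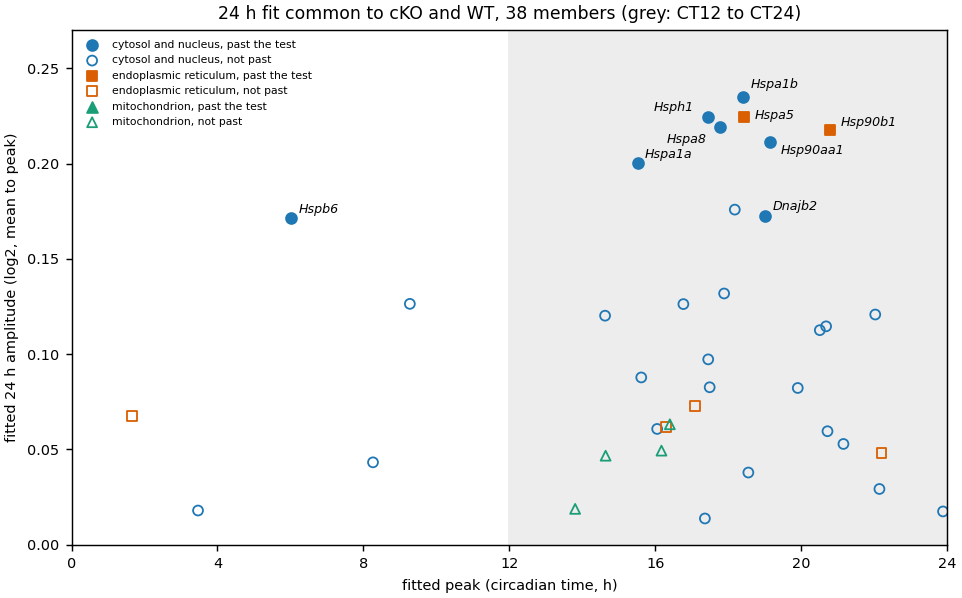
Fitted peak time (x axis, circadian hours) against fitted amplitude (y axis, log2 distance from mean to peak) for the 38 members, with filled symbols for members past the shared 24 h test and colour and shape for the cell compartment. Of the 9 filled symbols, 8 lie in the grey subjective night between CT15.5 and CT20.8, and Hspb6 lies in the subjective day.

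**Figure D2:**
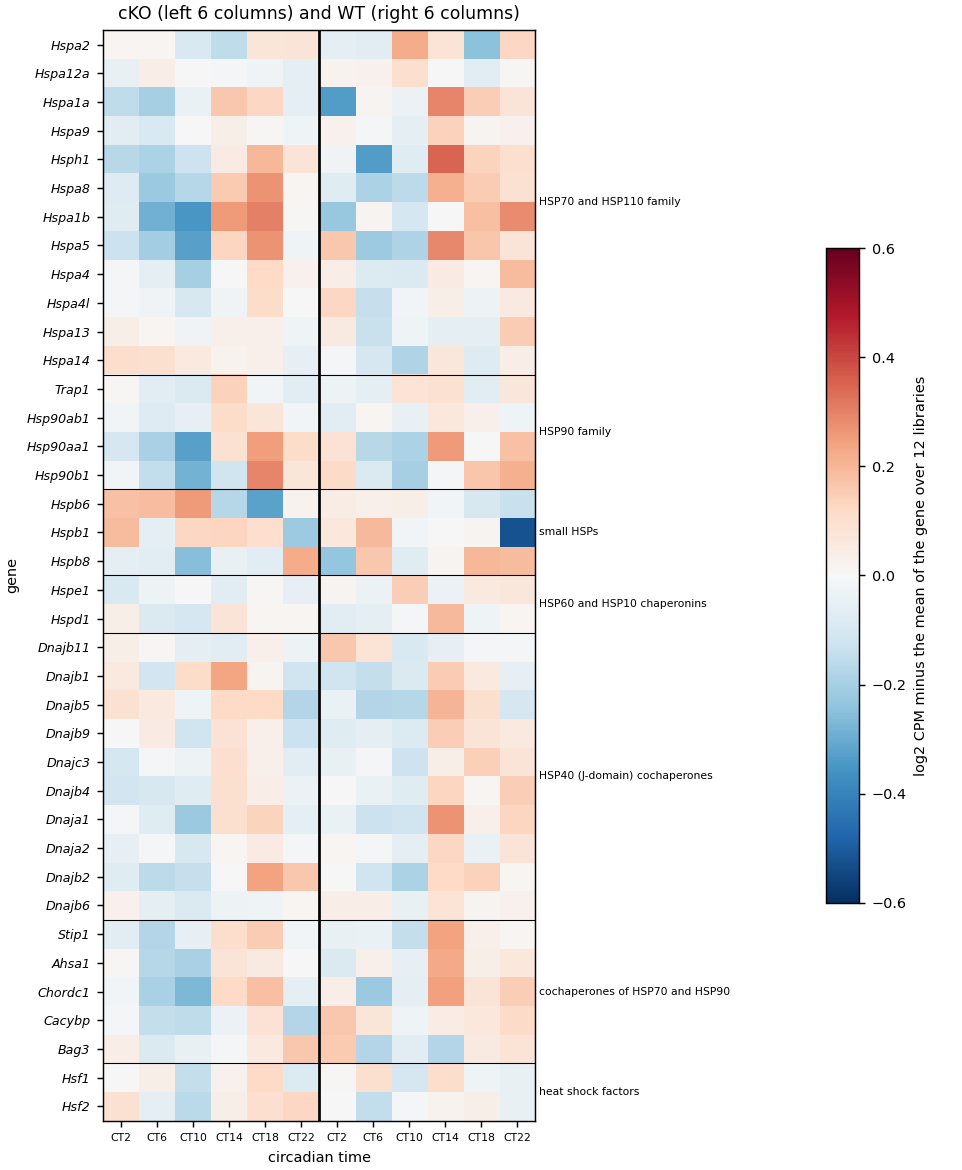
Level of each of the 38 members (rows, grouped by family) in each library (6 cKO columns by circadian time, then 6 WT columns), as log2 CPM minus the gene's mean over the 12 libraries. Red cells gather at CT14 and CT18 in part of the members of the HSP70, HSP90 and cochaperone groups, not in all of them. Higher levels at CT14 than at CT10 in both genotypes were found in 30 of 38 members.

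In the HSP70 and HSP110 family 5 of 12 members (41.7%) passed the shared test, against 3.46% of all tested genes, and all 5 had night peaks. Hspa8 encodes HSC70, the constitutive cytosolic HSP70 that serves general folding and uncoats clathrin vesicles. It had 1323, 1196, 1241, 1556, 1681 and 1408 CPM in cKO at CT2, CT6, CT10, CT14, CT18 and CT22, and 1327, 1224, 1251, 1617, 1553 and 1490 CPM in WT at the same times. All 3 subjective night libraries of each genotype were above all 3 subjective day libraries of that genotype, and the ranges of cKO and WT overlapped almost fully. The fitted rhythm spanned 1.36-fold with a peak at CT17.8 (amplitude 0.22 ± 0.03 log2, SE; adjusted p = 0.00179). Hspa8 was the only member that passed the shared test under all 14 alternative settings (adjusted p at most 0.0270) and the any-time test under all 13 (at most 0.0442).

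The stress-inducible HSP70 genes followed at lower levels. Hspa1a had 60.7, 58.8, 65.7, 75.3, 73.6 and 64.7 CPM in cKO at CT2 to CT22, and 53.4, 68.3, 65.9, 82.5, 74.6 and 71.0 CPM in WT. Its highest library was CT14 in both genotypes, its lowest was CT6 in cKO and CT2 in WT, and night and day libraries overlapped in cKO but not in WT. The fit gave a 1.32-fold range with a peak at CT15.5 (adjusted p = 0.0102), which was lost without the CT2 pair (adjusted p = 0.0589) or the CT14 pair (0.109). Hspa1b had 87.7, 75.6, 72.5, 110.3, 113.9 and 92.9 CPM in cKO, and 78.8, 93.5, 85.8, 92.5, 104.6 and 112.6 CPM in WT. Here night and day libraries were separate in cKO and overlapped in WT, where CT22 was the highest. The fit gave a 1.38-fold range with a peak at CT18.4 (adjusted p = 0.0278). This call was lost without the CT10 pair (adjusted p = 0.110), the CT18 pair (0.163), the CT22 pair (0.0577) or the WT library of CT22 (0.0510).

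Hspa1a and Hspa1b are near-identical neighbours, so the division of reads between them is uncertain. Their coding sequences in GENCODE M21, of 1926 and 1929 bases, differed at 11 of 1929 aligned positions and shared an identical run of 638 bases. The sum of both genes does not depend on that division. It was 148, 134, 138, 186, 188 and 158 CPM in cKO at CT2 to CT22, and 132, 162, 152, 175, 179 and 184 CPM in WT. The night libraries were above the day libraries in both genotypes, and the summed rhythm spanned 1.33-fold with a peak at CT17.3 (adjusted p = 0.0163), while the any-time test did not pass (adjusted p = 0.0719).

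Hsph1, which encodes the HSP110 protein that exchanges nucleotide on HSP70, had 52.4, 51.5, 53.8, 60.7, 67.3 and 61.9 CPM in cKO at CT2 to CT22, and 57.9, 46.5, 55.8, 74.9, 64.4 and 63.1 CPM in WT. Night libraries were above day libraries in both genotypes, with the top at CT18 in cKO and at CT14 in WT. The fit gave a 1.37-fold range with a peak at CT17.4 (adjusted p = 0.00591), lost without the CT6 pair (adjusted p = 0.0624). Its any-time call (adjusted p = 0.0469) was lost under 6 of 13 alternatives, with adjusted p up to 0.168 without the CT6 pair. The other HSP110 genes did not pass: Hspa4 had a fitted peak at CT20.5 (adjusted p = 0.0705), and Hspa4l one at CT20.7 (adjusted p = 0.445). Hspa2, known for its role in spermatogenesis, was the lowest member of the module, with 81 to 114 counts per library. The mitochondrial Hspa9, the ER-resident Hspa13, the ribosome-associated Hspa14 and the distant relative Hspa12a also did not pass.

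In the HSP90 family 2 of 4 members passed the shared test, against 3.46% of all tested genes. Hsp90aa1, the inducible cytosolic HSP90, had 1262, 1182, 1078, 1441, 1611 and 1457 CPM in cKO at CT2 to CT22, and 1436, 1206, 1184, 1616, 1352 and 1529 CPM in WT. The night libraries were above the day libraries in cKO, whereas in WT the CT2 library was above that of CT18. The fitted range was 1.34-fold with a peak at CT19.1 (amplitude 0.21 ± 0.04 log2, SE; adjusted p = 0.0265), lost without the CT6 pair (adjusted p = 0.119), the CT10 pair (0.153) or the CT22 pair (0.0737). Its any-time call (adjusted p = 0.0415) was lost in 5 of 13 alternatives, with adjusted p up to 0.302 without the CT10 pair. Hsp90ab1, the constitutive cytosolic HSP90, averaged 922 ± 46.8 CPM in cKO and 916 ± 30.6 CPM in WT (SD, n = 6 each) and did not pass, with a fitted range of 1.09-fold (adjusted p = 0.362). The difference between the 2 cytosolic genes was not tested. Per kilobase of exon both were among the most abundant members: Hspb1 averaged 360 CPM per kilobase in cKO and 340 in WT, Hsp90aa1 340 in cKO and 353 in WT, Hspa8 326 in cKO and 328 in WT, and Hsp90ab1 308 in cKO and 305 in WT. Mitochondrial Trap1 did not pass (adjusted p = 0.664).

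**Figure D3:**
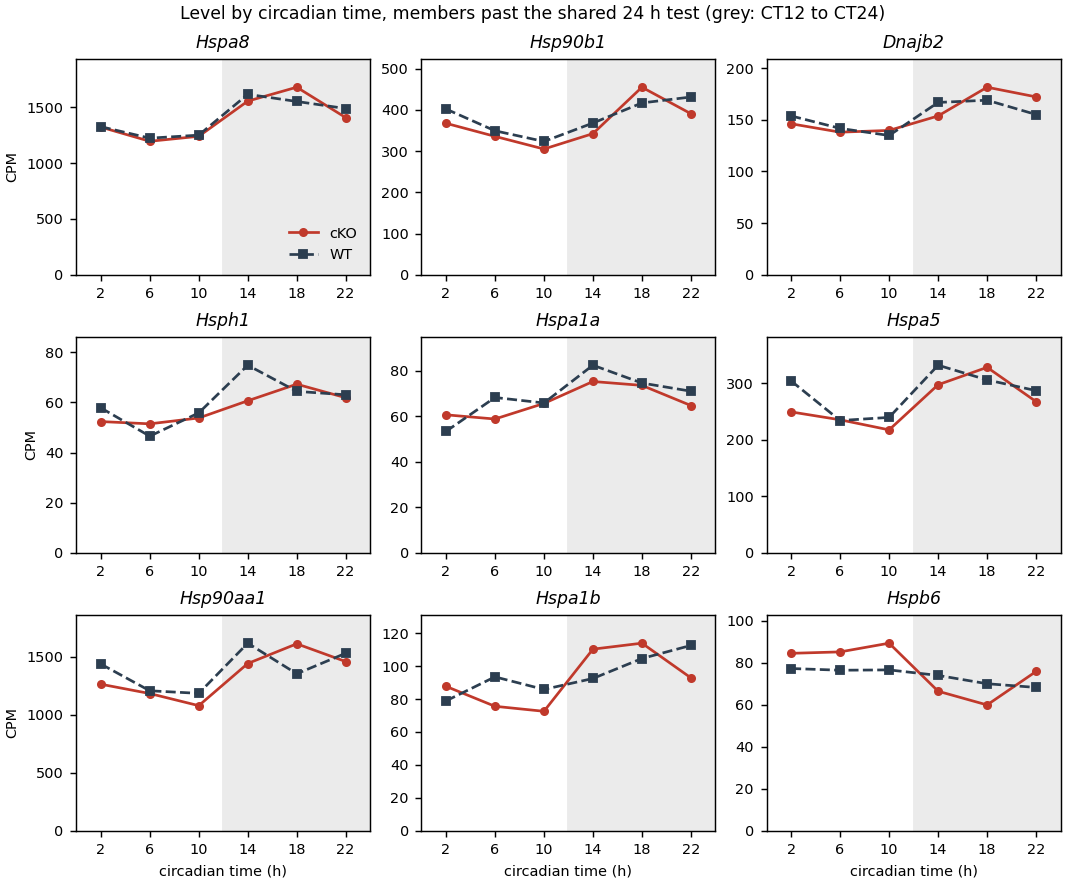
CPM (y axes, from 0) against circadian time (x axes, hours) for the 9 members past the shared 24 h test, with cKO as red circles on solid lines, WT as dark squares on dashed lines, 1 pooled library per point, and the subjective night in grey. In 8 panels the fitted peak lies in the grey span, and in the Hspb6 panel every point of the grey span is below every other point of its genotype.

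Both major ER chaperones had fitted peaks in the subjective night, although their day and night libraries overlapped, except for Hspa5 in cKO. Hspa5 encodes BiP, the ER HSP70 that also holds the sensors of the unfolded protein response. It had 249, 235, 217, 297, 328 and 267 CPM in cKO at CT2 to CT22, and 304, 234, 239, 331, 305 and 287 CPM in WT. CT6 and CT10 were the lowest times in both genotypes. The CT2 library of WT was nearly as high as that of CT18 and above that of CT22. The fit gave a 1.36-fold range with a peak at CT18.4 (adjusted p = 0.0176), lost without the CT6 pair (adjusted p = 0.117), the CT10 pair (0.0705) or the CT18 pair (0.107). The any-time test passed (adjusted p = 0.00861), except without the CT10 pair (adjusted p = 0.0856).

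Hsp90b1, the ER HSP90 known as GRP94, had 367, 336, 305, 342, 455 and 390.5 CPM in cKO at CT2 to CT22, and 402, 349, 323, 368, 417 and 431 CPM in WT. Its levels were lowest at CT10 in both genotypes, and at CT14 they were still below those at CT2, so that its fitted peak at CT20.8 was the latest of the 8 night members. The range was 1.35-fold (adjusted p = 0.00186), and the call was lost only without the CT10 pair (adjusted p = 0.0559). No test of the difference in peak time between genes was made. The other 4 ER members did not pass: the J-domain partners of BiP, Dnajb9, Dnajb11 and Dnajc3, had adjusted p of 0.564, 0.334 and 0.331, and Hspa13 of 0.678.

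A list of 18 further ER chaperones, folding enzymes and regulators gave 4 genes past the shared test (22.2%, against 3.46% of all tested genes), all with night peaks. A fitted night peak was found in 15 of 18 (83.3%, against 50.1% of all tested genes). This list was also chosen with earlier results of these data known. Xbp1, a transcription factor of the unfolded protein response, had a range of 1.44-fold with a peak at CT17.7 (adjusted p = 0.00277), and Manf, a secreted ER stress protein, one of 1.30-fold at CT17.9 (adjusted p = 0.00866). The glycoprotein chaperone Calr (1.28-fold, CT20.6, adjusted p = 0.00529) and its oxidoreductase partner Pdia3 (1.22-fold, CT19.5, adjusted p = 0.00536) had later fitted peaks, as Hsp90b1 did. Of these, Xbp1 passed in all 14 alternatives. Calr and Pdia3 were lost without the CT10 pair (adjusted p = 0.108 and 0.0649) and without the CT18 pair (0.0517 and 0.0700), and Manf without the CT18 pair (0.0906).

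Promoters of the members were searched for the elements of the ER stress and the heat shock response. Windows from 250 bases before to 50 bases after the annotated start were taken from RefSeq (GRCm38.p6), which matched 32 of 38 members, and Hspa8, Hspa9, Hspa13, Hsp90aa1, Hsp90ab1 and Hsf1 had no entry. The ER stress element, searched on both strands as CCAAT, any 9 bases and CCACG, was found in 3 members (Hspa5, Hsp90b1 and the ER J-domain gene Dnajc3), and in 0.137% of all genes with a window. A heat shock element of 2 repeats, GAANNTTC, which reads the same on both strands, was found in 12 members and in 9.04% of all genes. A longer element, searched on both strands as TTC, any 2 bases, GAA, any 2 bases and TTC, contains the shorter one. It was found in 5 members (Chordc1, Dnajb6, Hspd1, Hspe1 and Hsph1) and in 0.662% of all genes. The 4 stretches shown are those of the ER pair with the ER stress element, of the inducible HSP70 genes, and of a chaperonin gene that did not pass the rhythm tests but carries the longer element. Each runs 5′ to 3′ on the gene's strand, with the matched letters in capitals.
Hspa5, chr2:34771980-34772089, plus strand: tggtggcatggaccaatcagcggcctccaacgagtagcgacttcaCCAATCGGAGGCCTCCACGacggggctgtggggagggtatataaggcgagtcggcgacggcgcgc
Hsp90b1, chr10:86705525-86705674, minus strand: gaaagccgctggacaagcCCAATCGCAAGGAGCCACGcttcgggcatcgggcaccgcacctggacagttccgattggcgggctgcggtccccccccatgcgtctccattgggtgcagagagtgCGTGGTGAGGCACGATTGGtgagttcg
Hspa1a, chr17:34972207-34972306, minus strand: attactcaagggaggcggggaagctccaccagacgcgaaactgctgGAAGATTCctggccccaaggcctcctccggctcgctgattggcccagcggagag
Hspd1, chr1:55088033-55088092, minus strand: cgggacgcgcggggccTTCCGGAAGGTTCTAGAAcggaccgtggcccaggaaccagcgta
In Hsp90b1 the first match is on the gene's strand and the second on the other strand. The stretch of Hspa1b, at chr17:34959289-34959388, is letter for letter that of Hspa1a, and the 250 upstream bases of the 2 genes differ at 3 positions. In Hspd1 the capitals cover 2 overlapping matches, 1 on each strand, between the divergent starts of Hspd1 and Hspe1. A match is a description of the letters and no measure of binding. Among the 12 members with GAANNTTC, Hsph1, Hspa1a, Hspa1b and Hspb6 passed the shared rhythm test, against 3.46% of all tested genes. Bag3, Chordc1, Dnaja1, Dnajb6, Hspb1, Hspb8, Hspd1 and Hspe1 did not. Of the members with a window but without GAANNTTC, Hspa5, Hsp90b1 and Dnajb2 passed. Hspa8 and Hsp90aa1 also passed but had no window.

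Of the 10 J-domain proteins, 1 (10%) passed the shared test, against 3.46% of all tested genes. Dnajb2, a neuron-enriched cochaperone that binds ubiquitylated clients, had 146, 138, 140, 154, 181 and 172 CPM in cKO at CT2 to CT22, and 154, 142, 135, 167, 169 and 155 CPM in WT. In each genotype all 3 night libraries were above the 3 day libraries, although CT22 exceeded CT2 in WT by little (155.0 against 153.7 CPM). The fit gave a 1.27-fold range with a peak at CT19.0 (adjusted p = 0.00573), lost without the CT10 pair (adjusted p = 0.0588) or the CT18 pair (0.0862). The any-time test did not pass (adjusted p = 0.0593). Dnajb1 and Dnaja1, the main cytosolic J-domain partners of HSP70, had their highest level at CT14 or CT18 in each genotype without passing. Dnajb1 reached 131.5 CPM in cKO and 124.2 CPM in WT, both at CT14 (adjusted p = 0.118), and Dnaja1 209.7 CPM in cKO at CT18 and 230.0 CPM in WT at CT14 (adjusted p = 0.126).

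Of the 5 further cochaperones none passed the shared test at an adjusted p below 0.05, although 4 did at an unadjusted p below 0.05 (Chordc1, Stip1, Ahsa1 and Bag3), against 18.7% of all tested genes, and all 5 had fitted night peaks. Chordc1, a heat-inducible partner of HSP90, lay just outside the threshold (adjusted p = 0.0502). It had 39.8, 35.1, 33.4, 43.6, 45.6 and 38.7 CPM in cKO at CT2 to CT22, and 41.3, 34.4, 38.7, 47.6, 42.5 and 44.5 CPM in WT. Its CT14 and CT18 libraries were above the day libraries in both genotypes, and the fitted peak was at CT18.2 with a range of 1.28-fold. Chordc1 passed the shared test under 4 alternatives: with DESeq2 size factors, without the CT2 pair, without the WT library of CT18 and with 12 h terms added. Stip1, the adaptor HOP that passes clients from HSP70 to HSP90, had a fitted peak at CT16.8 (adjusted p = 0.0788), and Ahsa1, which stimulates the HSP90 ATPase, one at CT17.4 (adjusted p = 0.233). DESeq2 called 11 members in the shared test, the 9 and also Hspa4 and Stip1, and limma called the same 9.

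In a list of 25 other cytosolic chaperones and cochaperones, 2 (8%) passed the shared test, against 3.46% of all tested genes, and both had night peaks. They were St13, the HSP70-interacting protein HIP (1.25-fold, CT19.2, adjusted p = 0.0126), and Unc45a, an HSP90 cochaperone for myosin (1.35-fold, CT16.3, adjusted p = 0.00368). St13 was lost without the CT6 pair (adjusted p = 0.0528) or the CT10 pair (0.0855), and Unc45a without the CT18 pair (0.0711). Of this list 14 of 25 had fitted night peaks, close to the 50.1% of all tested genes. None of the 7 tested subunits of the cytosolic chaperonin TRiC passed (1 at an unadjusted p below 0.05; 0 by limma and 0 by DESeq2).

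The mitochondrial members and the heat shock factors did not pass. Hspd1, the HSP60 chaperonin, averaged 142 ± 6.91 CPM in cKO and 144 ± 9.89 CPM in WT (SD, n = 6 each; shared test adjusted p = 0.429), with its highest library at CT14 in both genotypes, at 150 CPM in cKO and 163 CPM in WT. Its partner Hspe1, the HSP10 lid, averaged 55.0 ± 1.48 CPM in cKO and 57.9 ± 2.84 CPM in WT (adjusted p = 0.917). Hspa9 averaged 201 ± 6.63 CPM in cKO and 208 ± 9.54 CPM in WT (adjusted p = 0.472). None of 8 other mitochondrial chaperones passed (1 at an unadjusted p below 0.05; 0 by limma and 0 by DESeq2). Hsf1, the main activator of the heat shock response, averaged 35.5 ± 2.27 CPM in cKO and 35.8 ± 2.03 CPM in WT, with the smallest fitted range of the module at 1.02-fold (adjusted p = 0.971). Hsf2 averaged 37.5 ± 2.77 CPM in cKO and 36.3 ± 1.62 CPM in WT (adjusted p = 0.332). Transcript levels do not measure the activity of these factors.

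Of the 3 small heat shock proteins, 1 passed the shared test (against 3.46% of all tested genes), with a day peak, and 1 of the others had a fitted night peak. Hspb6, the cytosolic small heat shock protein HSP20, is abundant in muscle. It had 84.4, 85.1, 89.3, 66.4, 59.9 and 75.8 CPM in cKO at CT2 to CT22, and 77.2, 76.4, 76.6, 73.9, 70.0 and 68.2 CPM in WT. All day libraries were above all night libraries in both genotypes, and the spread over times was wider in cKO. The fitted peak was at CT6.0 with a 1.27-fold range (adjusted p = 0.0488), and this call was lost in 10 of 14 alternatives, with adjusted p up to 0.216 without the CT18 pair. The amplitude was 0.27 ± 0.05 in cKO and 0.09 ± 0.05 in WT (log2, SE), and the rhythms differed at an unadjusted p of 0.0429 that did not pass adjustment. A sum of 12 extraocular muscle markers, none at 0 in every library, was 661, 732, 686, 751, 623 and 855 CPM in cKO at CT2 to CT22, and 647, 743, 784, 823, 656 and 835 CPM in WT. It was lowest at CT18 in cKO, the library where Hspb6 was also lowest, and highest at CT22 in both genotypes. In WT, by contrast, Hspb6 was lowest at CT22, where the muscle sum was highest. The part of muscle in the Hspb6 result was not tested.

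Hspb1, known as HSP25 in mice, is expressed in lens, muscle and many stressed cells. It had 407.9, 344.0, 390.3, 391.7, 383.4 and 307.9 CPM in cKO at CT2 to CT22, and 373.5, 409.0, 353.9, 357.8, 361.7 and 249.5 CPM in WT. CT22 was the lowest library in both genotypes. The shared 24 h test (adjusted p = 0.409) and the any-time test (adjusted p = 0.0628) did not pass, although limma and DESeq2 called it in the any-time test. The sum of 10 lens markers was also lowest at CT22 in both genotypes, at 46721 CPM in cKO and 35939 CPM in WT, and its part in the Hspb1 values was not tested. Hspb8, which acts with Bag3 in autophagy of misfolded proteins, had a fitted night peak at CT20.7 and did not pass (adjusted p = 0.377).

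**Figure D4:**
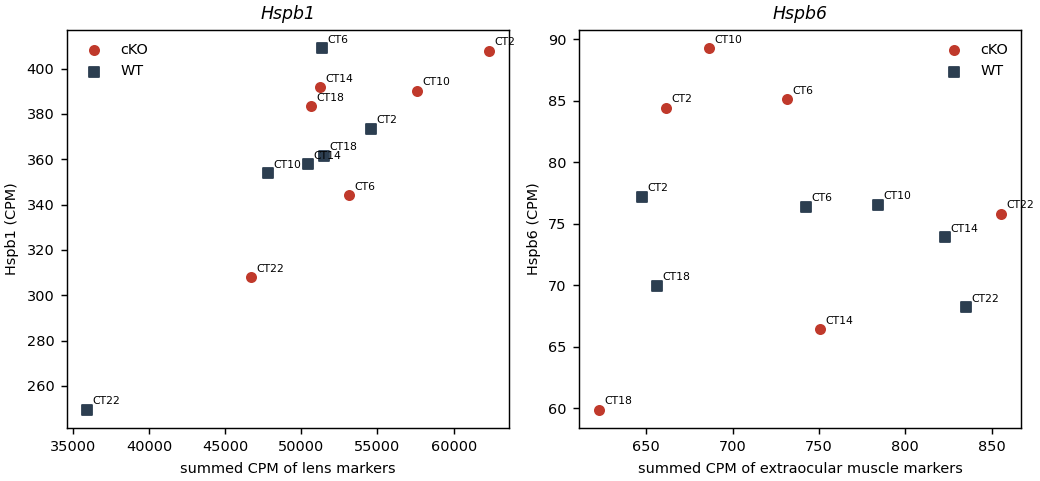
CPM of Hspb1 against the summed CPM of 10 lens markers, and CPM of Hspb6 against the summed CPM of 12 extraocular muscle markers, 1 point per library, cKO as red circles and WT as dark squares. The WT library of CT22 has the lowest Hspb1 level (249.5 CPM) and the lowest lens sum (35939 CPM), and the cKO library of CT18 has the lowest Hspb6 level (59.9 CPM) and the lowest muscle sum (623 CPM), whereas the lowest Hspb6 level of WT (68.2 CPM, CT22) goes with the highest WT muscle sum (835 CPM).

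Rbm3 and Cirbp, genes induced by mild cold, had fitted peaks in the subjective day. Their day and night libraries overlapped, except for Cirbp in WT. Rbm3, a cold-inducible RNA-binding protein, had 136, 176, 191, 169, 126 and 120 CPM in cKO at CT2 to CT22, and 146, 197, 202, 160, 136 and 127 CPM in WT, highest at CT10 in both genotypes, when Hsp90aa1 and Hsp90b1 were lowest in both. Hspa8 and Hsph1 were lowest at CT6 in both. Rbm3 passed the shared test in all 14 alternatives (peak CT9.1, adjusted p = 2.19e-06). Its relative Cirbp had 252, 285, 298, 219, 254 and 244 CPM in cKO, and 278, 296, 274, 197, 225 and 215 CPM in WT, lowest at CT14 in both. Its fitted peak was at CT5.9 (adjusted p = 0.0351), lost in 5 of 14 alternatives, with adjusted p up to 0.172 without the CT6 pair. A list of 10 immediate early genes, which respond to handling and neural activity, summed to 334 CPM in cKO and 406 CPM in WT at CT14, and to between 113 and 201 CPM in cKO and between 119 and 228 CPM in WT at the other times. Many chaperones were also high at CT14, and the part of handling or of activity in their levels was not tested.

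Taken within each genotype, with 6 libraries each, no member passed the 24 h test by edgeR. In cKO 12 members reached an unadjusted p below 0.05, against 8.41% of all tested genes, and 0.152% of all genes passed adjustment. In WT 8 members reached an unadjusted p below 0.05, against 11.7% of all tested genes, and 0.363% of all genes passed adjustment. By limma no member passed in either genotype, whereas DESeq2 called 6 in cKO (Hspa1b, Hspa8, Hsp90aa1, Hsp90b1, Hspb6 and Dnajb2) and 2 in WT (Hspa8 and Hsp90b1). With the cKO libraries fitted alone 4 members passed (Hspa1b, Hspa5, Hsp90aa1 and Dnajb2), without the CT2 pair 1 passed in cKO (Hspa1b), and with the WT libraries fitted alone none did.

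The rhythm of no member differed between cKO and WT after adjustment, by edgeR, limma or DESeq2, where 0.0132% of all tested genes passed. At an unadjusted p below 0.05 there was 1 member, Hspb6, against 2.58% of all tested genes. For Hspa8 the amplitude was 0.23 ± 0.05 in cKO and 0.20 ± 0.05 in WT (log2, SE; unadjusted p of the difference 0.914). For Hsp90aa1 it was 0.26 ± 0.06 in cKO and 0.16 ± 0.07 in WT (unadjusted p of the difference 0.543), and for Hspa1b 0.31 ± 0.07 in cKO and 0.16 ± 0.07 in WT (0.263). The difference of the rhythms had a size of 0.17 ± 0.10 for Hspa1b and 0.10 ± 0.09 for Hsp90aa1 (log2, SE). Neither passed the test, which does not show that the rhythms were alike.

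Rhythms of 12 h, which occur among ER chaperones in mouse liver, were sought with added 12 h terms. No member passed by edgeR, limma or DESeq2, where 0.00661% of all tested genes passed by edgeR. At an unadjusted p below 0.05 there were 6 members, Hspa5, Hspb1, Dnajb5, Hsf1, Dnajb1 and Chordc1, against 4.98% of all tested genes, and the smallest adjusted p was 0.965. Without the CT6 pair, Hspb1 passed. With 6 times at intervals of 4 h, a 12 h wave is sampled at only 3 phases.

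No member differed detectably in level between cKO and WT. For genotype, 0 of 38 members passed by edgeR, limma or DESeq2, against 0.139% of all tested genes by edgeR. The log2 differences, cKO minus WT at matched times, ran from -0.14 for Cacybp to 0.09 for Hspb1, and 37 of 38 were within 0.1 of 0. Their 95% confidence intervals together spanned -0.24 to 0.20, so larger changes of whole-eye levels are outside the interval of every member. These whole-eye values also hold tissues in which the receptor gene was not targeted.

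Cacybp, a HSP90 cochaperone that also binds S100 proteins and the ubiquitin ligase SIAH1, was the only member at an unadjusted p below 0.05, against 5.89% of all tested genes. It had 65.5, 59.8, 59.3, 64.4, 70.1 and 58.4 CPM in cKO at CT2 to CT22, and 73.7, 69.4, 64.7, 68.0, 69.0 and 71.4 CPM in WT. It was lower in cKO at 5 of 6 times, all but CT18, and the ranges overlapped (unadjusted p = 0.00661, adjusted p = 0.577). By sign alone 28 of 38 members were lower in cKO, against 50.1% of all tested genes, and the members' median log2 difference was -0.03. Among them were 19 of 28 cytosolic and nuclear members, 5 of 6 ER members and 4 of 4 mitochondrial members. Of the further lists, 13 of 18 ER genes were lower in cKO, but only 2 of 8 other mitochondrial chaperones. Tissue markers also leaned by genotype: 10 of 10 lens markers were higher in cKO (median log2 difference 0.15, 8 at an unadjusted p below 0.05), while 10 of 11 muscle markers (median -0.08) and 7 of 7 stroma and sclera markers (median -0.09) were lower. Of the marker lists, 1 gene passed the adjusted genotype test, in the cornea list, and the part of tissue make-up in the members' signs was not tested. Hspa5 averaged 265 ± 41.0 CPM in cKO and 283 ± 39.1 CPM in WT (SD, n = 6 each), a log2 difference of -0.10 ± 0.05 (SE; unadjusted p = 0.0549, adjusted p = 0.848). Dnajb6, a suppressor of protein aggregation, was the only member with cKO below WT at all 6 times. It averaged 149 ± 4.34 CPM in cKO and 154 ± 4.40 CPM in WT (SD, n = 6 each). The log2 difference was -0.05 ± 0.04 (SE; adjusted p = 0.913). The share of all tested genes with cKO below WT at all 6 times was not counted.

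**Figure D5:**
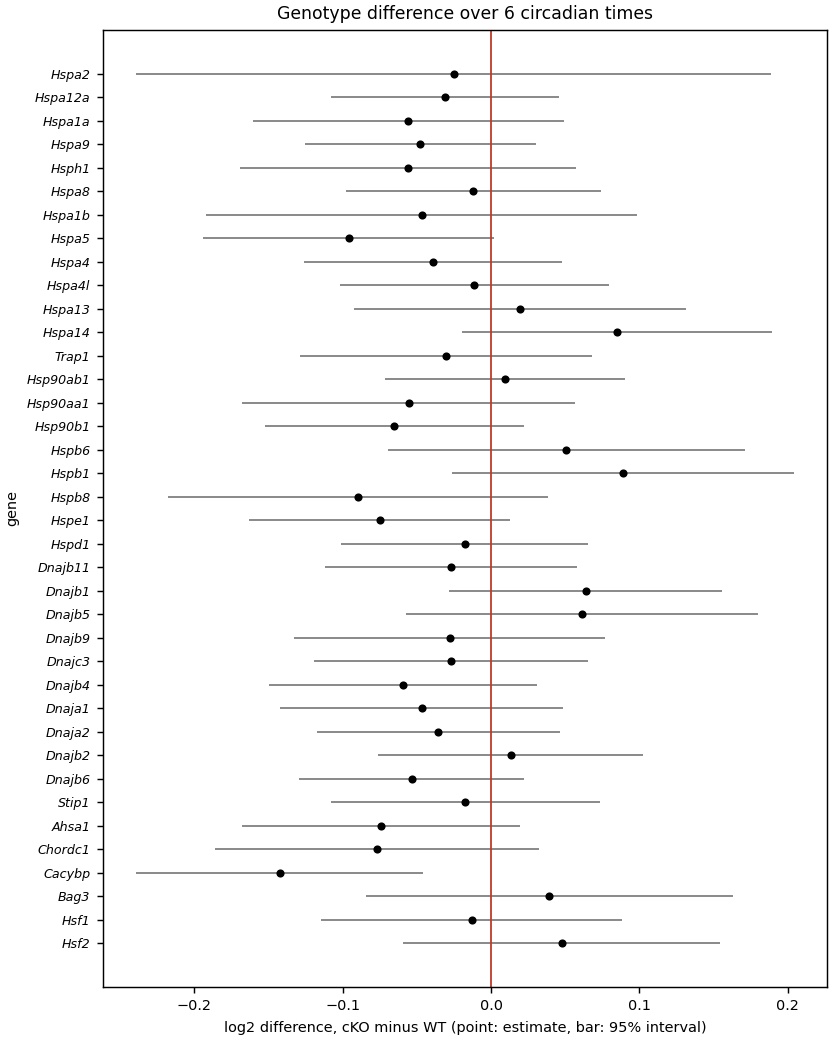
Log2 difference between cKO and WT at matched times for the 38 members (points) with 95% confidence intervals (bars). The differences run from -0.14 to 0.09, and no member passed the adjusted test.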

How the data were processed

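Whole-eye RNA of 3 mice was pooled per library, per the labels' protocols. The values used are raw counts per gene as the authors deposited them, whole numbers in 1 table of 12 libraries. Build, aligner, counting tool and strandedness: none of these is given in the sources used here. Of 32544 entries, 27 whose names a spreadsheet had turned into dates were left out (median 0.158% of counts).

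Counts were tested in edgeR 4.0.16 (R 4.3.3; TMM; filterByExpr by genotype, minimum count 10, minimum total 15) by the quasi-likelihood F test, Benjamini-Hochberg adjusted over 15134 genes at a threshold of 0.05. Genotype (cKO minus WT) was tested with time as a factor, which pairs the libraries of a time (5 residual degrees of freedom). Shared rhythm used a genotype term and a 24 h cosine and sine (8), the any-time test time as a factor (5), and the tests within each genotype, of their difference and of 12 h terms 6 each. Rhythm SEs are those implied by the F statistic. Each p measures the residual spread of its fit, and intervals cover that spread only. The biological coefficient of variation was 6.06% in the fit with time as a factor. Pools were not repeated within a genotype and time, so spread between pools cannot be separated from what a fit leaves out. With time as a factor, that is any change of the genotype difference over time. In the rhythm fits it also holds departures from the fitted waves.

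The members and lists were chosen with earlier results of these data known. Any member could be named, and of the other pathway lists up to 4 genes past a test by smallest p, both cold-inducible genes and Nr3c1, while marker lists were summed. Alternatives were DESeq2 size factors, no filter, limma-trend (3.58.1), DESeq2 1.42.0, leaving out each time's pair or the WT library of CT18 or CT22, summing Hspa1a and Hspa1b, other time terms, and each genotype alone. Backgrounds above a CPM level were added after seeing the data. The code was tested on simulated counts. Exon lengths and coding sequences came from GENCODE M21 and promoters from RefSeq.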

Additional observations from a re-analysis of the deposited data

Results flagged for a closer look

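In groups of 6 libraries, the gap between the highest or lowest library and its nearest neighbour was compared with the group's range for each member and genotype, 76 groups in all, of which chance marks about 1 in 20. It stood out in 2. Hspb1 in WT was 249.5 CPM at CT22, where the other WT libraries ranged from 354 to 409 CPM, and the summed lens markers were lowest in that library too (35939 CPM). Hspd1 in WT was 163 CPM at CT14, where the other WT libraries ranged from 136 to 144 CPM.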

How the results depend on the processing

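The number of members past the shared 24 h test (9) stayed between 8 and 11 under other normalisation, filter, tool, summed Hspa1 genes or added 12 h terms, and ranged from 3 to 10 when a time or library was left out. The any-time count (5) was 10 without the filter on low counts and ranged from 1 to 8 on leaving out. Within cKO the count (0) was 6 by DESeq2, 4 with the cKO libraries fitted alone and 0 to 1 on leaving out, and within WT (0) it was 2 by DESeq2. The 12 h count (0) was 0 to 1 on leaving out. Genotype and rhythm difference gave 0 members in every alternative. The log2 difference of Nr3c1 kept its sign, and no fitted 24 h peak of a named gene past the shared test moved by more than 6 h. Any-time ranges have no direction to change. Over all genes, without the filter the counts were 51 for genotype (21 with it), 553 for any time (292), 52 in cKO (23), 108 in WT (55), 8 for 12 h (1) and 7 for the rhythm difference (2). DESeq2 gave 68 in cKO, 104 in WT, 2 for 12 h and 5 for the difference, limma 0 for 12 h, and single-genotype fits 103 in cKO and 23 in WT. Genotype gave 3 without a time term, and 5, 6 and 12 without the CT2, CT6 and CT10 pairs. The shared count (523) was lowest, at 217, without the CT10 or the CT18 pair. Each time held 1 pool per genotype, so times and pools cannot be told apart within a genotype, and the cause of these shifts was not tested.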
